A study of Mus musculus with 12 samples.

Results

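The fibroblast growth factor (FGF) and platelet-derived growth factor (PDGF) ligands and receptors were followed in cultured oligodendrocyte precursor cells (OPCs). They were taken by name, as every gene of both expression tables with a symbol of the form Fgf or Fgfr plus a number, Fgfrl1, or 1 of the PDGF ligand and receptor symbols. This gave 37 genes of 45563, of which 29 reached the mean of 0.1 FPKM (fragments per kilobase per 1000000 mapped reads) required for testing. By role they were 22 FGF genes, the receptors Fgfr1 to Fgfr4 and the receptor-like Fgfrl1, 4 PDGF ligands, the receptors Pdgfra and Pdgfrb, and the receptor-like Pdgfrl. The pattern also took in Fgfr1op and Fgfr1op2, which are named after an FGFR1 fusion and are not receptors, and the pseudogene Fgfr3-ps.

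RNA was sequenced from primary OPCs of C57BL/6 mice in 12 libraries, 3 in each of 4 groups. The cells came from cortices of pups aged p2 to p5, were either wild type (WT) or germline TNFR2-/-, and were kept for 3 days in vitro. Non-stimulated (NS) cells received vehicle, and stimulated (St) cells received TNF, IFNγ and IL1β at 25 ng/mL each for 3 h. The groups were thus WT NS, WT St, TNFR2-/- NS and TNFR2-/- St, with replicates 2, 3 and 4 in WT and 2, 4 and 5 in TNFR2-/-, and they addressed how loss of TNFR2 and an inflammatory stimulus bear on OPC gene expression. All 4 groups shared 2 features that touch these genes directly. The cells were purified with antibody to PDGFRα, the product of Pdgfra, and the culture medium held PDGF-AA and FGF2 protein. A germline knockout lacks TNFR2 in every cell type, so effects before culture cannot be told apart from effects in culture. Whether the libraries of a group came from separate animals is not given in the labels, and the p-values measure the spread between these libraries.

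FGFs are mostly secreted proteins that bind receptor tyrosine kinases together with heparan sulphate, and PDGFs are secreted dimers that bind a second pair of receptor tyrosine kinases. Both receptor families signal through adaptors, PI3 kinase and the RAS-ERK cascade, which switches on its own feedback inhibitors. In the oligodendrocyte lineage, PDGF-AA acting on PDGFRα is the classic mitogen of OPCs, and FGF2 keeps OPCs dividing and maintains their PDGFRα.

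Libraries held 26869929 to 30316061 recovered reads on genes. Tnfrsf1b, which encodes TNFR2, was covered by 12 to 24 reads in WT NS libraries and by 61 to 145 in WT St libraries, but by 213 to 346 in libraries labelled TNFR2-/- NS and 282 to 356 in those labelled TNFR2-/- St. Its level thus went against the label, gene-level values do not show which part of the gene was read, and every genotype difference given here is between libraries as labelled. The summed OPC markers (10 genes) lay at 8660 to 9960 RPM (reads per 1000000 reads on genes) in WT NS, 8880 to 9660 in TNFR2-/- NS, 7260 to 8270 in WT St and 7790 to 8550 in TNFR2-/- St. Markers of mature oligodendrocytes summed to 553 to 1060, 744 to 1350, 598 to 1080 and 584 to 1140, and those of neurons to 343 to 464, 348 to 371, 731 to 822 and 815 to 905, in the same order. The higher neuronal sum with stimulation came mainly from Tubb3 (1155 to 2146 reads in NS and 11535 to 14263 in St), while Snap25 was lower (876 to 1557 and 500 to 719). Most of the 11 neuronal markers moved up, 7 against 4 down in WT, and 8 against 3 down in TNFR2-/-. Mean Nefm increased in TNFR2-/- from 456 to 758 FPKM, without overlap, and in WT from 489 to 618, with overlap. Microglial markers reached at most 13.1 and endothelial markers at most 69.2 RPM in any library. Astrocyte markers are given beside Fgf1 and Fgfr3, and mural cell markers beside Pdgfb and Pdgfrb. Within a genotype, the NS and the St library of a given number deviated together from their group means and are treated as 1 culture where pairs are given.

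Pdgfra had the highest level of the set. Because the deposited FPKM divide each gene by a number of bases unrelated to its annotated length, levels of different genes are compared as reads per kilobase of annotated exon per 1000000 reads. On that scale Pdgfra had 66.5 ± 10.2 (SD, n = 3) in WT NS, and Fgfr1 followed with 39.6 ± 2.22. Pdgfa, which encodes the chain of PDGF-AA, had 33.4 ± 3.27 and Fgfrl1, an FGF-binding protein without a kinase domain, had 31.6 ± 6.09, and these last 2 differed by less than their spread.

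Fgfr3 (9.58 ± 1.23), Fgf1 (8.28 ± 0.880), Fgf12 (7.19 ± 0.0398), Fgfr2 (6.55 ± 0.785) and Fgf11 (5.83 ± 0.838) formed a middle range of the same scale in WT NS, in which neighbours had overlapping means ± SD except Fgf1 and Fgf12. Below it came Pdgfc at 4.27 ± 0.454, Fgf13 at 3.72 ± 0.235, Pdgfb at 3.04 ± 1.81 and Fgf2 at 2.79 ± 0.292. This order depends on the gene length used. Per kilobase of the longest annotated transcript, Fgfr2 (15.3) stood above Fgf1 (11.4) and Fgf12 (10.8). On that scale Pdgfc (6.17) and Fgf13 (5.99) stood above Fgf11 (5.84). The remaining ligands and receptors were low. Fgf17 had 13 to 92 reads per library, Pdgfd 38 to 159, Pdgfrb 12 to 108, Fgf18 5 to 42 and Fgf8 1 to 17. Fgfr4, the only FGF receptor kinase near the limit of counting, had 2 to 13.

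**Figure D1:**
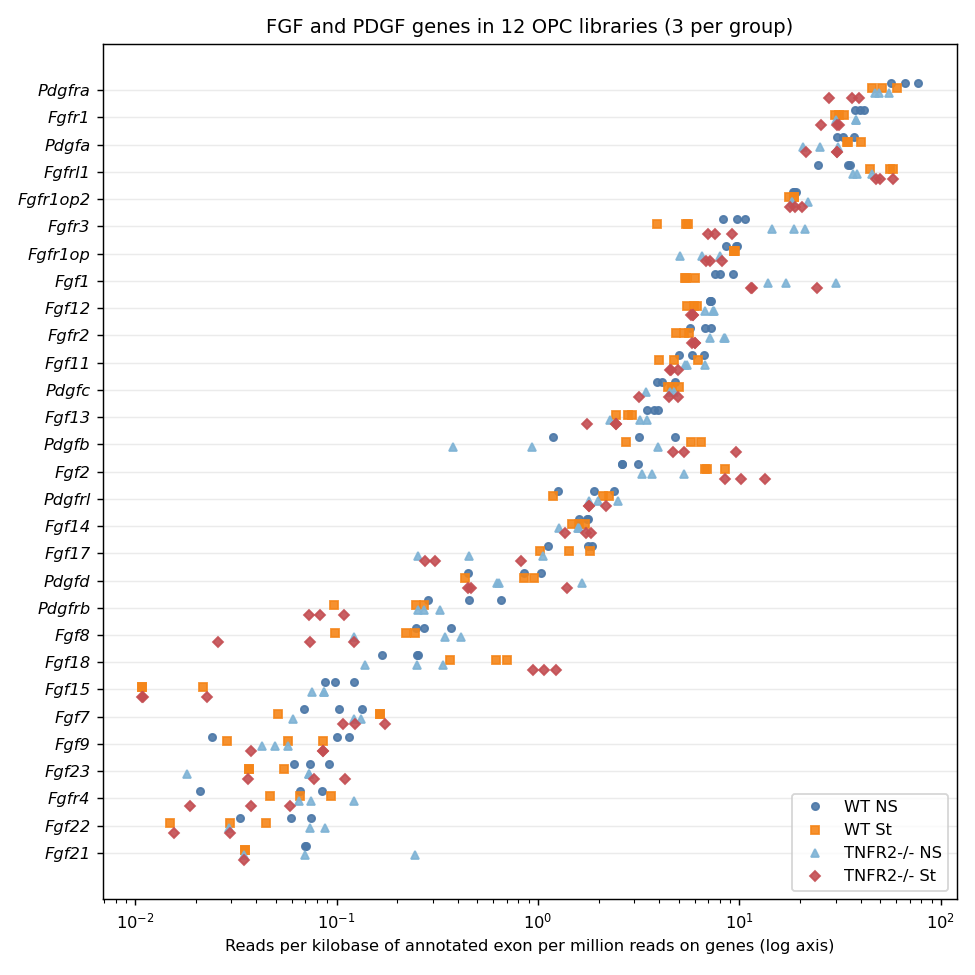
Level of each of the 29 tested genes in each of 12 libraries, in reads per kilobase of annotated exon per 1000000 reads on genes on a log axis, ordered by the WT NS mean; each point is 1 library, colour and shape give the group, and libraries at 0 are not drawn. Pdgfra, Fgfr1, Pdgfa and Fgfrl1 lie at the top, and Pdgfrb and Fgf18 lie in the lower part.

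A further 8 genes stayed under the filter. Fgf4, Fgf20 and Fgfr3-ps had 0 reads in all 12 libraries, which allows up to 3 reads per library, and Fgf3, Fgf6 and Fgf16 had at most 3. Fgf10, a mesenchymal ligand of FGFR2, had 1 to 8. Fgf5 had 10 to 42 reads, more than some tested genes, and fell under the filter through its large divisor. These counts and limits cover counting error only.

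Promoter sequence is shown for Fgf2 and Fgfr3, the members called in both genotypes after stimulation and in opposite directions. Each run covers 250 bases before and 50 after a RefSeq start (GRCm38.p6, plus strand, 5′ to 3′), and the capital marks the first transcribed base. Fgf2 has 1 such window, at chr3:37348403-37348702, and Fgfr3 has 2, at chr5:33721474-33721773 and chr5:33722056-33722355.
Fgf2: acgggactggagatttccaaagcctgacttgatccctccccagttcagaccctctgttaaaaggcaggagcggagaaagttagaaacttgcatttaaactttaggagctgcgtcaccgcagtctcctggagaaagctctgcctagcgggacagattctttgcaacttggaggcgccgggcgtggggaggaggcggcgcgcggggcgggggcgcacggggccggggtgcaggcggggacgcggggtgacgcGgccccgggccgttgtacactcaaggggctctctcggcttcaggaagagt
Fgfr3, first start: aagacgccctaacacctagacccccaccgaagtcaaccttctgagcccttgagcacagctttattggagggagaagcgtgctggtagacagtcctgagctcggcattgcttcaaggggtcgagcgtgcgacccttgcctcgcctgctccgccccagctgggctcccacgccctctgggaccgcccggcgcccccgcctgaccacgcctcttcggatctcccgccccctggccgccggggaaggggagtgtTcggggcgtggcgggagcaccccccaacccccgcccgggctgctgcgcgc
Fgfr3, second start: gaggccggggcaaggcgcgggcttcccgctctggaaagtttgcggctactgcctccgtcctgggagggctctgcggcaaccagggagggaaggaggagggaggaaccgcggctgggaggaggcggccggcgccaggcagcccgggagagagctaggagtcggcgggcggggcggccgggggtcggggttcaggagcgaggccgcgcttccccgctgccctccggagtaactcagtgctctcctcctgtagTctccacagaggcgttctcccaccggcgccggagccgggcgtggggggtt

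These windows were searched on both strands for TGANTCA (the AP-1 site) and a form of the κB site. None of the 3 windows held a match, nor did those of Fgfrl1 or Pdgfra, so that 0 matches were found in the promoters of the 4 called members present in the table, of 7 called. Over all 32851 promoters of the same length, 0.411% held the κB form and 7.808% the AP-1 pattern. GC content was 62.7% for Fgf2 and 69.7% and 73.0% for Fgfr3, against a median of 52.7% over all promoters.

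In WT OPCs, stimulation raised Fgf2 and Fgfrl1 and lowered Fgfr3. A call required an adjusted p (limma, Benjamini-Hochberg) no larger than 0.05, a change of 1.5-fold or more and an average of 1 FPKM or more across the libraries. By this rule 3 of 29 members were called (10.3%) against 7.53% of all 18081 genes tested. Of them 2 rose, against 4.58% of all genes, and 1 fell, against 2.95%. In 13 members the 3 WT St libraries did not overlap the 3 WT NS libraries, as in 37.7% of all genes. The median log2 fold change was -0.15 over the members and -0.05 over all genes.

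In the libraries labelled TNFR2-/-, the same stimulus raised Fgf2 and Pdgfb and lowered Fgfr3 and Pdgfrb. The call was made for 4 of 29 members (13.8%) against 10.1% of all genes, with 2 higher against 5.41% and 2 lower against 4.68%. In 12 members the groups did not overlap, as in 37.3% of all genes. The median was -0.28 over the members and -0.11 over all genes, so that the typical gene of this comparison was itself slightly lower. In bulk RNA, fewer cells of a type and less RNA per cell cannot be told apart.

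Fgf2, the mitogen that was also supplied as protein, was called in both genotypes, and the call held under all 25 alternative settings tried in each. In WT NS it had 531, 569 and 533 reads (replicates 2, 3 and 4) and in WT St 1408, 1717 and 1383. In the libraries labelled TNFR2-/- NS it had 753, 673 and 1090 (replicates 2, 4 and 5) and in TNFR2-/- St 1722, 2081 and 2610. Every stimulated library stood above every non-stimulated one of either genotype. Fgf2 rose by 1.23 ± 0.19 (log2, SE, 95% interval 0.81 to 1.64, limma adjusted p = 0.00114) in WT and by 1.26 ± 0.19 (0.84 to 1.68, adjusted p = 0.000715) in TNFR2-/-. The deposited values went from 2.24 ± 0.234 to 5.92 ± 0.741 FPKM (SD, n = 3) in WT and from 3.28 ± 0.857 to 8.57 ± 2.02 in TNFR2-/-. Nudt6, whose exons overlap those of Fgf2 on the opposite strand, had 27 to 59 reads per library, and reads of the overlap could not be assigned to either gene since the strand setting of the counting is not given in the sources used here.

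**Figure D2:**
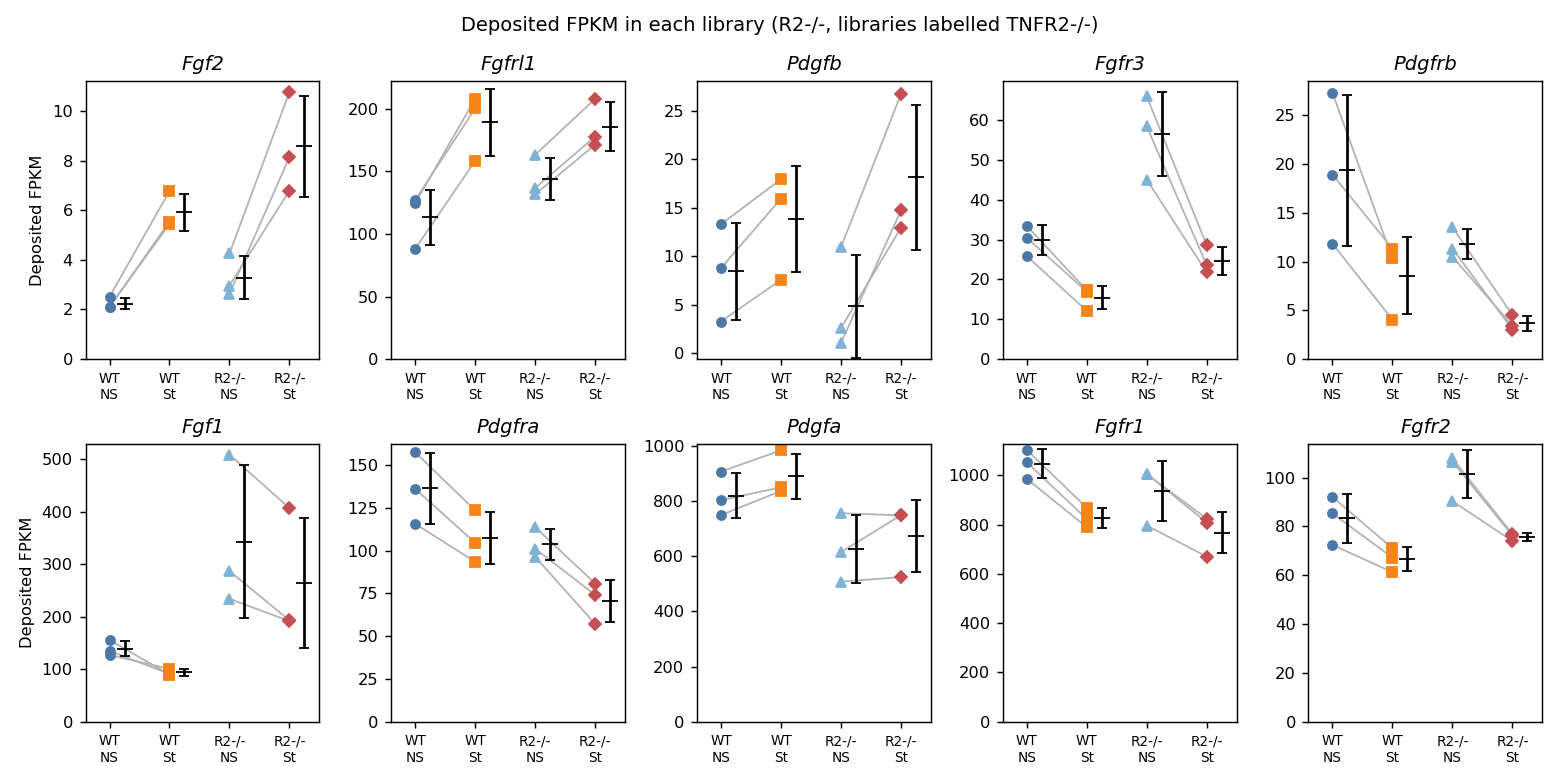
Deposited FPKM of 10 members in the 12 libraries, with a linear axis for each gene; points are libraries, grey lines join NS and St libraries of the same replicate number within a genotype, and black marks give the mean ± SD (n = 3). Fgf2 is higher and Fgfr3 lower in each stimulated library than in its NS partner, and Fgf1 is highest in TNFR2-/- replicate 5.

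Other secreted FGFs gave few reads. Fgf18, a ligand of FGFR3 in cartilage, had 9, 8 and 6 reads in WT NS, 13, 25 and 22 in WT St, 12, 5 and 9 in TNFR2-/- NS and 38, 34 and 42 in TNFR2-/- St. The stimulated libraries did not overlap the non-stimulated ones. Its log2 differences were 0.63 ± 0.17 (adjusted p = 0.0256) in WT and 1.26 ± 0.17 (adjusted p = 0.000322) in TNFR2-/-, but its mean stayed below 1 FPKM and it was not called. Fgf15, an endocrine FGF of the gut, had 7 to 10 reads in every NS library and 1 to 2 in every St library. Against a nominal level of 3 reads per library for St, above the counts seen there, Fgf15 was 3.00-fold lower in WT St and 2.56-fold lower in TNFR2-/- St. These folds leave out counting error. Its log2 differences were -0.73 ± 0.09 (adjusted p = 0.000307) in WT and -0.60 ± 0.09 (adjusted p = 0.000925) in TNFR2-/-. Fgf15 too lay below 1 FPKM and was not called.

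Fgf1, which can bind all FGF receptors, had 1519, 1177 and 1238 reads in WT NS and 878, 888 and 983 in WT St. It had 2806, 2303 and 5010 in TNFR2-/- NS and 1882, 1882 and 3794 in TNFR2-/- St. The stimulated libraries were the lower ones in every culture, with log2 differences of -0.79 to -0.34 in WT and -0.57 to -0.29 in TNFR2-/-. The mean log2 differences of -0.56 ± 0.31 (adjusted p = 0.289) and -0.39 ± 0.31 (adjusted p = 0.401) did not pass the test, which did not pair cultures. Both folds also lay below the threshold. The intracellular FGF homologous factors Fgf11 to Fgf14, which are not secreted and bind sodium channels, gave log2 differences of -0.38 to -0.10 in WT and of -0.34 to 0.14 in TNFR2-/-. Of these, Fgf12 passed on adjusted p in both genotypes (-0.29 and -0.30, adjusted p = 0.00697 and 0.00391) with a fold below the threshold.

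Among PDGF ligands, Pdgfb, the chain of PDGF-BB that also binds PDGFRβ, rose in the libraries labelled TNFR2-/-. It had 493, 118 and 48 reads in TNFR2-/- NS and 1200, 586 and 633 in TNFR2-/- St, so that the lowest stimulated library stood just above the highest NS one. The log2 change was 2.22 ± 0.70 (95% interval 0.67 to 3.76, adjusted p = 0.0389). In WT it had 395, 132 and 597 reads in NS and 718, 341 and 808 in St, with overlapping groups and a log2 difference of 0.78 ± 0.70 (adjusted p = 0.55). Each St library was above its NS partner in all 6 cultures, by 0.42 to 1.10 in WT and by 1.25 to 3.29 in TNFR2-/- on the log2 scale. Without TNFR2-/- NS replicate 5 the change was 1.57 (adjusted p = 0.124), and leaving out TNFR2-/- NS replicate 4 or any single TNFR2-/- St library also ended the call (adjusted p = 0.064 to 0.117), as did leaving out WT NS replicate 2 or WT St replicate 2 or 4, which enter only through the shared spread (adjusted p = 0.0522 to 0.0529). Without TNFR2-/- NS replicate 2, the highest of its group, it was 3.01 (adjusted p = 0.00565). The call was also lost without a filter on low values (adjusted p = 0.0763) and with the libraries of the compared groups only (adjusted p = 0.0903). With the paired cultures as a block the change kept its size with an adjusted p of 0.00274. By voom it was 2.47 (adjusted p = 0.0226). Of 25 alternatives, 15 kept the Pdgfb call and 10 ended it. Summed mural cell and fibroblast markers ranked the NS libraries as Pdgfb did, at 799, 441 and 1390 RPM in WT and 873, 479 and 253 in TNFR2-/-. In WT St, at 905, 545 and 1260, the order was also shared, and in TNFR2-/- St, at 749, 385 and 186, it was not. Most reads in these sums were of Acta2 and Tagln, with 13164 and 8391 in WT NS replicate 2. The part of mural cells or fibroblasts in the Pdgfb values was not tested.

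Pdgfa, the ligand of PDGFRα, had 2858, 2744 and 3454 reads in WT NS and 3198, 3242 and 3761 in WT St. It had 2351, 2908 and 1957 in TNFR2-/- NS and 2856, 2875 and 1912 in TNFR2-/- St. NS and St overlapped in both genotypes, and the log2 differences were 0.12 ± 0.17 (95% interval -0.25 to 0.49) and 0.11 ± 0.17 (-0.26 to 0.47), which leaves room for a moderate change either way. The exons of Pdgfa share 813 bases with those of 6330403L08Rik on the opposite strand, which had 419 to 665 reads per library. Pdgfc and Pdgfd, whose products need cleavage before they act, differed by 0.12 and -0.05 in WT and by -0.02 and -0.39 in TNFR2-/-, and neither was called.

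Fgfr3, the FGF receptor that restrains growth of cartilage and is also made by astrocytes and OPCs, was the receptor kinase called in both genotypes. It had 2301, 1592 and 2091 reads in WT NS and 1191, 834 and 1169 in WT St, and 4030, 3126 and 4585 in TNFR2-/- NS and 1623, 1508 and 1880 in TNFR2-/- St. The groups did not overlap within either genotype. Fgfr3 fell by 0.94 ± 0.18 (log2, SE, adjusted p = 0.00427) in WT and by 1.17 ± 0.18 (adjusted p = 0.000779) in TNFR2-/-. Its exons overlap those of an unclassified gene on the opposite strand, G630022F23Rik, which was not analysed here.

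Fgfr1 and Fgfr2 gave smaller differences that were not called. Fgfr1 had 11054, 10570 and 12341 reads in WT NS and 8864, 9221 and 9753 in WT St, and 11283, 11376 and 9015 in TNFR2-/- NS and 9236, 9120 and 7181 in TNFR2-/- St. The WT groups did not overlap, but the log2 differences of -0.34 ± 0.10 (adjusted p = 0.0509) and -0.28 ± 0.10 (adjusted p = 0.0723) missed the threshold. Each St library of Fgfr1 was below its NS partner, with log2 differences of -0.36 to -0.32 in WT and -0.32 to -0.25 in TNFR2-/-. Fgfr2 had 2080, 1581 and 2240 reads in WT NS and 1642, 1494 and 1736 in WT St, and 2637, 2221 and 2625 in TNFR2-/- NS and 1873, 1818 and 1777 in TNFR2-/- St. Its log2 differences were -0.32 ± 0.10 (adjusted p = 0.0518) and -0.42 ± 0.10 (adjusted p = 0.0102, with a fold below the threshold). The exons of Fgfr2 share 314 bases with those of Ctbp2 on the same strand, which had 1796 to 3047 reads per library. Fgfr4 could not be compared usefully at 2 to 13 reads.

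Fgfrl1 went the other way. It had 2960, 1837 and 2896 reads in WT NS and 4677, 3690 and 4859 in WT St, and it rose by 0.75 ± 0.16 (adjusted p = 0.00807). In TNFR2-/- NS it had 3193, 3094 and 3842 and in TNFR2-/- St 4140, 4020 and 4629, again without overlap, with a log2 difference of 0.37 ± 0.16 (adjusted p = 0.114). Per culture the log2 rise was 0.655 to 0.843 in WT and 0.348 to 0.378 in TNFR2-/-. The test of the difference between these responses, which did not pair cultures, gave -0.38 ± 0.22 (adjusted p = 0.727). Without WT NS replicate 3, the lowest of its group, the WT change was 0.58 (adjusted p = 0.0234), just under the fold threshold.

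Pdgfra was lower in each St library than in its NS partner, by 0.31 to 0.38 in WT and by 0.45 to 0.75 in TNFR2-/- on the log2 scale. It had 19962, 20680 and 16932 reads in WT NS and 15357, 18109 and 13735 in WT St, which overlapped (-0.35 ± 0.15, adjusted p = 0.172). In TNFR2-/- NS it had 14867, 16812 and 14278 and in TNFR2-/- St 10864, 11932 and 8000, which did not (-0.56 ± 0.15, adjusted p = 0.021), with a fold just below the threshold. Of the 10 other OPC markers, 9 were lower with stimulation in WT and 8 in TNFR2-/-. In WT 1 rose and 3 fell past the rule (40%, against 7.53% of all genes), and in TNFR2-/- 2 fell (20%, against 10.1%). Their part in the Pdgfra result was not tested.

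Pdgfrb, the PDGF receptor of pericytes and fibroblasts, was rare. It had 75, 42 and 108 reads in WT NS, 45, 16 and 41 in WT St, 45, 54 and 42 in TNFR2-/- NS and 12, 18 and 13 in TNFR2-/- St. Every St library was below every NS library of its genotype except that WT St replicate 2 stood above WT NS replicate 3 in reads and just below it in FPKM. Pdgfrb fell by 1.57 ± 0.37 (adjusted p = 0.0101) in TNFR2-/-, and the WT difference was -1.17 ± 0.37 (adjusted p = 0.0549). With the replicate number of the paired cultures as a block, the WT difference kept its size with an adjusted p of 0.00132 and passed the rule. A requirement of 2 RPM in place of 1 FPKM, chosen after the data were seen, removed the TNFR2-/- call.

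The 17 mural cell and fibroblast markers, none at 0 in any group, summed to 441 to 1390 RPM in WT NS, 545 to 1260 in WT St, 253 to 873 in TNFR2-/- NS and 186 to 749 in TNFR2-/- St. Acta2 (2007 to 25471 reads per library) and Tagln (1782 to 14252) made up most of each sum. Notch3 had 793 to 1904 reads, Rgs5 had 7 to 37 and Abcc9 had at most 3. Of the 13 tested, 8 were higher and 5 lower with stimulation in WT, and 4 higher and 9 lower in TNFR2-/-. Of these, 1, Lum, was called, as higher in both genotypes (7.69% of the list, against 7.53% and 10.1% of all genes). Kcnj8 and Tbx18 were also higher in both without overlap, but averaged below the 1 FPKM that a call requires. Kcnj8 had 0 to 3 reads in WT NS, 18 to 36 in WT St, 1 to 2 in TNFR2-/- NS and 11 to 31 in TNFR2-/- St. Tbx18 had 2 to 5, 8 to 10, 0 to 1 and 8 to 11 in the same order. The part of these cells in the Pdgfrb result was not tested. Pdgfrl, a secreted receptor-like protein, gave -0.01 and -0.12 with 105 to 236 reads.

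**Figure D3:**
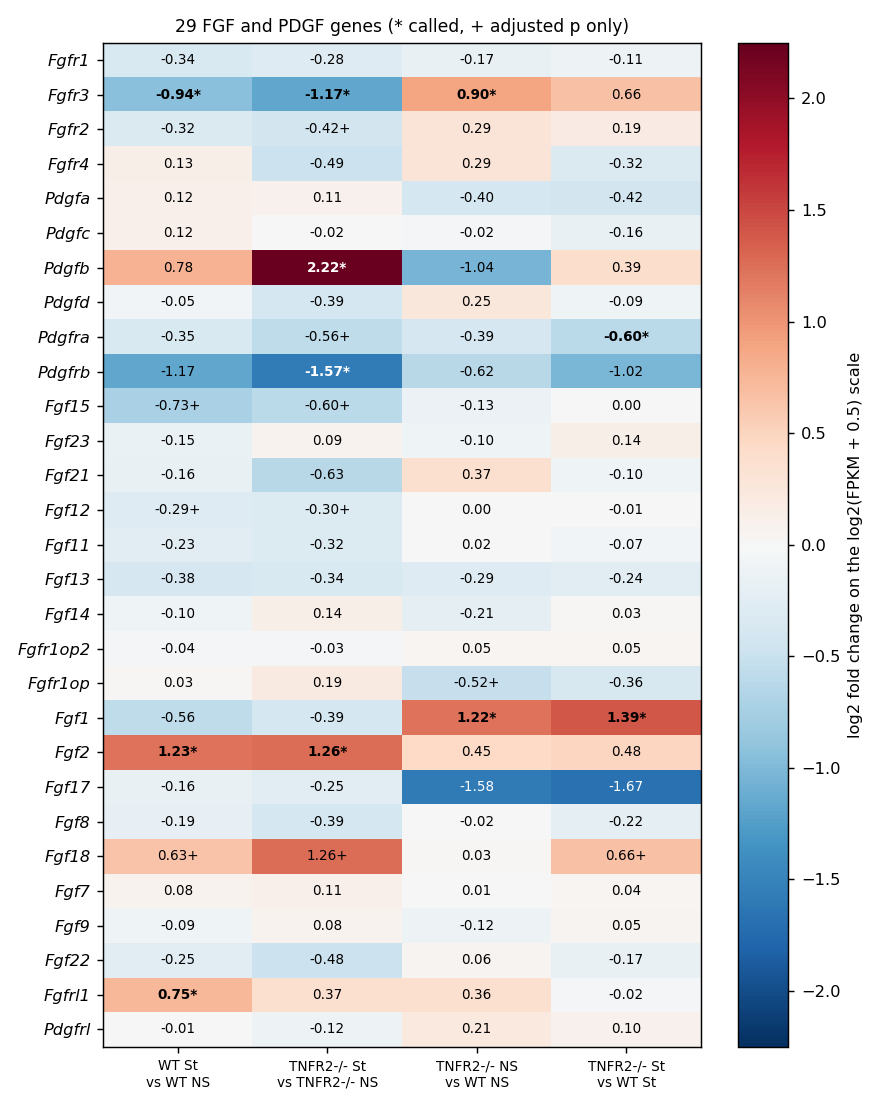
Log2 fold changes of the 29 tested members, on the log2(FPKM + 0.5) scale, in the 2 stimulation and 2 genotype comparisons; rows are grouped by role, red is higher and blue lower in the first-named group. Asterisks mark calls and plus signs an adjusted p of at most 0.05 without a call, and Fgf2 and Fgfr3 carry asterisks in both stimulation columns.

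Between genotypes without stimulation, Fgf1 and Fgfr3 were higher in the libraries labelled TNFR2-/-. They were the 2 members of 29 called (6.9%), against 2.9% of all genes, and both were higher, against 1.62% of all genes, while 0 members were lower by limma, against 1.28%, and 1, Fgf17, by voom. In 10 members the groups did not overlap, as in 34.2% of all genes, and the median was 0.00 over the members and 0.04 over all genes. Fgf1 was higher by 1.22 ± 0.31 (log2, SE, 95% interval 0.53 to 1.92, adjusted p = 0.0364) and Fgfr3 by 0.90 ± 0.18 (0.50 to 1.29, adjusted p = 0.0193). Fgf1 came from 1177 to 1519 reads in WT NS, and TNFR2-/- NS replicate 5, with 5010, was far above its group. Without that library the Fgf1 difference was 0.90 (adjusted p = 0.109) and the Fgfr3 difference 0.78 (adjusted p = 0.0665). Leaving out any WT NS library or TNFR2-/- NS replicate 2 also ended the Fgf1 call (adjusted p = 0.0545 to 0.119), as did WT St replicate 2 or 4 through the shared spread (adjusted p = 0.0504 and 0.0557), and leaving out WT NS replicate 3 or 4 or TNFR2-/- NS replicate 2 also ended the Fgfr3 call (adjusted p = 0.053 to 0.0848).

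With stimulation in both genotypes, Fgf1 was higher and Pdgfra was lower in the libraries labelled TNFR2-/-. Of 29 members 2 were called (6.9%), against 1.8% of all genes, with 1 higher against 1.18% and 1 lower against 0.614%. The groups did not overlap in 9 members, as in 32.7% of all genes, and the median was -0.02 over the members and -0.00 over all genes. Fgf1 was higher by 1.39 ± 0.31 (adjusted p = 0.0368), or by 1.03 (adjusted p = 0.0988) without TNFR2-/- St replicate 5. Leaving out any WT St library, any WT NS library, TNFR2-/- St replicate 2 or TNFR2-/- NS replicate 2 also ended this call (adjusted p = 0.0502 to 0.124). Fgfr3 differed by 0.66 ± 0.18 (adjusted p = 0.0547), without overlap between the groups, and was called by voom (adjusted p = 0.0447).

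Pdgfra was lower in TNFR2-/- St than in WT St by a log2 difference of -0.60 ± 0.15 (95% interval -0.94 to -0.26, adjusted p = 0.0488). Every TNFR2-/- St library, at 8000 to 11932 reads, was below every WT St library, at 13735 to 18109. This call lay at the edge of the rule, and both other scalings ended it (adjusted p = 0.0626 with median-of-ratios and 0.0585 with quantile normalization). It was lost without TNFR2-/- St replicate 5 (-0.46, adjusted p = 0.145), without WT St replicate 3 (-0.50, adjusted p = 0.168) and without each other library of the pair of groups except TNFR2-/- St replicate 4 (adjusted p = 0.088 to 0.0942), as well as without any WT NS library or TNFR2-/- NS replicate 2 through the shared spread (adjusted p = 0.0532 to 0.0663). Without stimulation the same comparison gave -0.39 ± 0.15 (adjusted p = 0.122), also with no overlap. Since these were cells sorted on PDGFRα, the share of sorted cells and the RNA per cell cannot be told apart.

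The higher Fgf1 and Fgfr3 stood beside higher astrocyte markers. The 10 astrocyte markers, all detected in every group, summed to 2470 to 2900 RPM in WT NS, 2330 to 2420 in WT St, 3480 to 5230 in TNFR2-/- NS and 3580 to 5240 in TNFR2-/- St, so that the genotypes did not overlap. TNFR2-/- replicate 5, the library with the most Fgf1, was also the highest in astrocyte markers, at 5230 against 3760 and 3480 RPM in NS and 5240 against 3580 and 3670 in St. Its Gfap had 10491 reads in NS against 889 and 1072, and 10010 in St against 1301 and 1926. Not all astrocyte markers followed. Aldh1l1 was highest in replicate 2 (7274 against 6740 reads in replicate 5 in NS, 6419 against 5501 in St). Sox9 was lowest in replicate 5 (4762 against 5222 and 5752 in NS, 4244 against 5185 and 5070 in St). The other markers of the list were highest in replicate 5 in both conditions. In mature oligodendrocyte markers the same replicate was again the highest of its group. These summed to 1350 against 744 and 935 RPM in NS, and 1140 against 584 and 829 in St. In mural cell markers it was the lowest, at 253 against 873 and 479 in NS and 186 against 749 and 385 in St. In NS, 10 of 10 astrocyte markers were higher in TNFR2-/-. Limma called 1, Gja1 (10%, against 2.9% of all genes), and voom called 2. In St, 10 of 10 were higher. Limma called 3, Slc1a2, Slc1a3 and Slc4a4 (30%, against 1.8%), and voom called 4. With stimulation the same list did not move together, with 3 higher and 7 lower in WT, 5 higher and 5 lower in TNFR2-/-, and 0 called by limma or voom (1 and 0 at an unadjusted p under 0.05), whereas Fgfr3 fell in both genotypes. Of the mature oligodendrocyte markers, 11 of 11 were higher in TNFR2-/- in NS and 8 of 11 in St. Of them 0 were called, against 2.9% and 1.8% of all genes. The part of astrocytes or of other cells in the genotype differences of Fgf1 and Fgfr3 was not tested.

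The remaining members were not called between genotypes by limma. Fgf18, with 13, 25 and 22 reads in WT St and 38, 34 and 42 in TNFR2-/- St, passed on adjusted p and fold in St (0.66 ± 0.17, adjusted p = 0.0492) with a mean below 1 FPKM, and Fgfr1op passed on adjusted p in NS (-0.52 ± 0.14, adjusted p = 0.0388) with a fold below the threshold. Fgf2 was higher in TNFR2-/- by 0.45 ± 0.19 (adjusted p = 0.14) in NS and 0.48 ± 0.19 (adjusted p = 0.139) in St, without overlap in either condition. Pdgfa differed by -0.40 ± 0.17 (adjusted p = 0.134) and -0.42 ± 0.17 (adjusted p = 0.145). Fgf17, an FGF of midbrain patterning, had 57, 84 and 90 reads in WT NS and 23, 54 and 13 in TNFR2-/- NS, then 52, 92 and 72 in WT St and 14, 42 and 15 in TNFR2-/- St, with log2 differences of -1.58 ± 0.50 (adjusted p = 0.0678) and -1.67 ± 0.50 (adjusted p = 0.0734). By voom Fgf17 was called in NS (adjusted p = 0.0432) and not in St (adjusted p = 0.0551). TNFR2-/- replicate 4 was the highest of its group both times. Fgfr1 differed by -0.17 and -0.11, Fgfr2 by 0.29 and 0.19, Fgfrl1 by 0.36 and -0.02 and Pdgfrb by -0.62 and -1.02, none called.

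A difference in the response itself was not called for any member. The interaction of genotype and stimulation was called in 0 of 29 members and in 0.00553% of all genes by limma. At an unadjusted p under 0.05 there was 1 member, Fgf18, and voom on the recovered reads also called 0. The 2 largest estimates were 1.44 ± 0.98 for Pdgfb (95% interval -0.74 to 3.62) and 0.62 ± 0.24 for Fgf18 (0.10 to 1.15, adjusted p = 0.564). For Fgf2 the estimate was 0.03 ± 0.27 (-0.56 to 0.62) and for Fgfr3 -0.23 ± 0.25 (-0.79 to 0.32), and these intervals leave room for responses of moderately different size. Each group entered 2 of the 4 pairwise comparisons, so the comparisons share libraries and their values are set side by side without a test of their likeness.

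Several co-receptors, and enzymes that build heparan sulphate or cleave ligands, changed with stimulation. Of 35 such genes 33 were tested. In WT, 4 rose and 2 fell with stimulation (18.2%, against the 7.53% of all genes). In TNFR2-/-, 7 rose and 2 fell (27.3%, against 10.1%). Sdc4, the heparan sulphate proteoglycan syndecan-4, rose by 1.35 ± 0.23 (adjusted p = 0.0025) and 1.34 ± 0.23 (adjusted p = 0.00193). Furin, a protease that matures PDGF chains, rose by 0.90 ± 0.11 in each genotype (adjusted p = 0.000223 and 0.000165). Nrp2, the co-receptor neuropilin-2, rose by 0.65 and 0.97, and Hs2st1, a heparan sulphate sulphotransferase, rose by 0.85 in WT. Hs2st1 was higher with stimulation in TNFR2-/- too, at 4112 to 4521 reads in NS and 6581 to 7336 in St. Flrt1, a membrane partner of FGF receptors, fell by 1.20 and 0.87, and Fgfbp3, an FGF-binding protein, by 0.77 (adjusted p = 0.0499) and 1.35. Between genotypes in NS, 3 were lower in TNFR2-/- and 0 higher (Flrt3 by -0.98, Flrt2 by -0.73 and Flrt1 by -0.64), which is 9.09% of the list against 2.9% of all genes. In St 0 were called by limma or by voom, against 1.8% of all genes, with 12 of 33 at an unadjusted p under 0.05 against 4820 of 18081.

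Of the kinases and adaptors downstream of the receptors, Pik3cd changed most. Of 42 tested, 3 rose and 0 fell in WT by limma (7.14%, against 7.53% of all genes), and 3 rose and 3 fell in TNFR2-/- (14.3%, against 10.1%). Voom called 3 higher and 2 lower in WT. Pik3cd, the PI3 kinase subunit typical of leukocytes, went from 24 to 33 reads in WT NS to 237 to 317 in WT St, a rise of 2.81 ± 0.11 (adjusted p = 5.58e-08). In TNFR2-/- it went from 28 to 34 reads to 487 to 526, a rise of 3.60 ± 0.11 (adjusted p = 1.09e-08). Cblb, a ubiquitin ligase of activated receptors, rose by 0.83 and 0.94. Akt2 rose by 0.61 in WT and Rps6ka3 by 0.69 in TNFR2-/-, where Src fell by 0.70, Frs3, an FGF receptor adaptor, by 0.61 and Pik3cb by 0.61. Each moved the same way in the other genotype without a call by limma. Akt2 averaged 1155 FPKM in TNFR2-/- NS and 1629 in TNFR2-/- St. In WT NS and WT St, Rps6ka3 averaged 58.7 and 80.9 FPKM, Src 13.0 and 8.87, Frs3 7.05 and 4.84 and Pik3cb 176 and 119. Between genotypes Pik3cb was lower in TNFR2-/-, by log2 differences of -0.64 in NS (2.38% of the list, against 2.9%) and -0.68 in St, where Pik3cd was higher by 0.86 (4.76%, against 1.8%).

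Genes switched on by ERK, including the feedback inhibitors of FGF signaling, had the largest share of calls of these 3 lists. Of 19 tested, 1 rose and 6 fell by limma with stimulation in WT (36.8%, against 7.53%), and 4 rose and 5 fell in TNFR2-/- (47.4%, against 10.1%). By voom 3 rose and 6 fell in WT, and 4 rose and 5 fell in TNFR2-/-. The list's median was -0.36 in WT and -0.23 in TNFR2-/-, against -0.05 and -0.11 over all genes. Dusp6, the ERK phosphatase, went from 6585 to 8412 reads in WT NS to 3624 to 3726 in WT St, and from 8130 to 8907 to 3550 to 4236 in TNFR2-/-. It fell by 1.08 ± 0.07 in both (adjusted p = 1.14e-06 and 9.70e-07).

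Etv5, an ETS factor of the FGF response, fell by 1.23 ± 0.10 (adjusted p = 9.81e-06) in WT and by 1.38 ± 0.10 (adjusted p = 3.35e-06) in TNFR2-/-. Spry4, a Sprouty inhibitor, fell by 1.15 ± 0.26 (adjusted p = 0.0112) and 1.16 ± 0.26 (adjusted p = 0.0075). Other members of the list went up. The immediate early gene Fos rose by 0.89 ± 0.23 (adjusted p = 0.0219) in WT and by 1.64 ± 0.23 (adjusted p = 0.00042) in TNFR2-/-, where Dusp5, Fosl1 and Il17rd also rose, by 1.31, 1.18 and 1.01. Dusp5 and Fosl1 went up in WT as well, without a call by limma. Their WT means were 64.2 and 760 FPKM without stimulation, and 111 and 1135 FPKM with it. Neither gene's read counts overlapped between WT NS and WT St. Il17rd, like the Sprouty genes a feedback inhibitor of FGF signaling, gave 0.47 ± 0.31 in WT (adjusted p = 0.385). Many stimuli besides growth factors reach these genes. Between genotypes, Egr1, Fos and Spry2 were lower in TNFR2-/- NS, by log2 differences of -1.28, -1.25 and -0.66 (15.8% of the list, against 2.9%), and Spry3 in TNFR2-/- St by -0.95 (5.26%, against 1.8%).

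**Figure D4:**
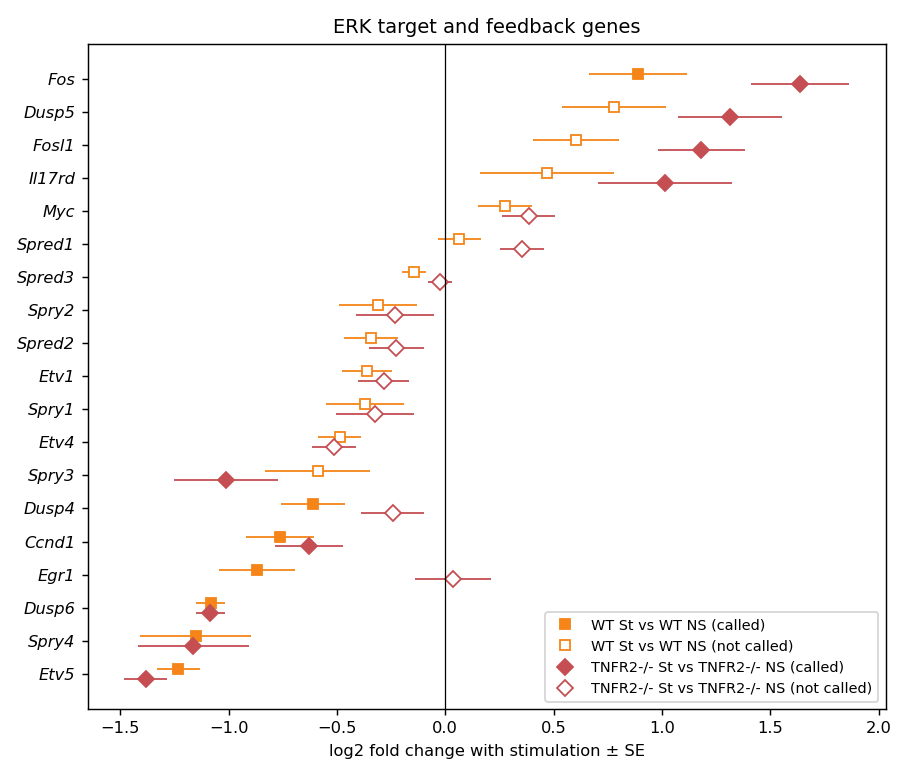
Log2 fold change with stimulation ± SE of the 19 ERK target and feedback genes, in WT (squares) and in libraries labelled TNFR2-/- (diamonds); filled symbols were called. Dusp6, Etv5 and Spry4 lie near or below -1.08 in both genotypes, and Fos lies above 0 in both.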

How the data were processed

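The data were 12 RNA-seq libraries of cultured OPCs, 3 per group, given as FPKM tables of NS and St libraries with 45792 entries each. Per the labels and methods, the authors used Trim Galore for trimming and STAR for alignment and counting on GRCm38, ran edgeR for their own comparisons and deposited FPKM values. The 229 entries that shared 99 symbols were dropped. Whole reads were recovered from the FPKM for 26628 of 26636 genes above 0 in at least 2 libraries (99.97%, within 0.0005 of a read). The divisor in the FPKM had a median of 1068 bases against 4046 annotated exon bases in GENCODE M21 (Spearman's rho 0.00948 across 16471 genes), so a threshold on FPKM treats genes of equal counts unequally.

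The test was limma 3.58.1 (R 4.3.3) on log2 values of FPKM plus 0.5, with 4 group means, empirical Bayes moderation with trend and Benjamini-Hochberg adjustment over the 18081 genes that averaged 0.1 FPKM or more. Intervals were 95% intervals from the moderated fit. This fit did not pair cultures, so its SE and p-values carry the spread between cultures. Fold changes are on this scale, which understates those of low genes. The scripts were tested on simulated data. Samples were grouped by the labels. Replicate numbers paired NS with St libraries within a genotype (r of deviations 0.338 to 0.649 in 6 pairs, against -0.455 to 0.088 for other numbers), and not across genotypes (-0.0553 to 0.204 in 4 pairs). Alternatives were pseudocounts of 0.1 and 1, other filters, scalings and thresholds, voom on recovered reads, replicate blocks and leaving out each of 12 libraries. Values in every library are given for called members and Pdgfra, Pdgfa, Fgf2, Fgfr1, Fgfr2 and Fgfr3, while Fgf1 with stimulation, Fgf15, Fgf17 and Fgf18 were added after their values were seen. In the lists, up to 3 called genes per direction, with Dusp6, Spry4 and Etv5, were named. The members, the pathway lists (co-receptors and ligand processing, receptor signaling, ERK targets) and the marker lists were chosen with earlier results of these data known. Promoters were taken from RefSeq (GRCm38.p6). A further motif is not reported here. Python 3.11.15 with pandas 2.3.3 and matplotlib 3.10.9 was used.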

Additional observations from a re-analysis of the deposited data

Results flagged for a closer look

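Fgf14, an intracellular FGF homologous factor that binds sodium channels, moved in opposite directions in the cultures of the 2 genotypes. It was lower with stimulation in all 3 WT cultures, by log2 differences of -0.13 to -0.06, and higher in all 3 cultures labelled TNFR2-/-, by 0.10 to 0.21. The difference between the responses was 0.243, and its test in limma did not pass (adjusted p = 0.77). All of these differences are small, at 162 to 231 reads per library.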

How the results depend on the processing

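Over 11 called values of single members, the alternatives gave 271 values, of which 218 kept the call, 53 lost it and 0 changed direction. The Fgf2 and Fgfr3 responses to stimulation kept their calls under all alternatives in both genotypes. The number of members called stayed at 3 to 4 in WT St vs WT NS, and the interaction stayed at 0, under every alternative run. Of TNFR2-/- NS vs WT NS, 2 members became 1 without a filter on low values, 0 with the libraries of the compared groups only, and 0 to 4 when 1 library was left out. Of TNFR2-/- St vs WT St, 2 became 1 at a pseudocount of 0.1, 0 without the filter, 1 without the trend, 0 with the compared groups only, and 0 to 4 when 1 library was left out, while median-of-ratios scaling and quantile normalization called 2, Fgf1 and Fgfr3, without Pdgfra. Of TNFR2-/- St vs TNFR2-/- NS, 4 became 7 without a fold threshold, and 3 without the filter or with the compared groups only (both losing Pdgfb) or with a mean of at least 2 RPM (losing Pdgfrb), a setting chosen after the data were seen.

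With the replicate number as a replicate block across genotypes, which it does not pair, 5 members were called in TNFR2-/- NS vs WT NS (Fgf1 and Fgfr3 higher, Fgf17, Pdgfd and Pdgfrb lower) and 4 in TNFR2-/- St vs WT St (Fgf1 higher, Fgf17, Pdgfd and Pdgfrb lower), where Pdgfra differed by -0.40. The replicate block within genotypes, which does pair cultures, added Pdgfrb to the WT response and changed no other member's call. The cause of these changes was not tested. Median-of-ratios scaling moved the share of higher calls over all genes from 53.6% to 66.7% in TNFR2-/- St vs TNFR2-/- NS, and quantile normalization moved it from 55.9% to 44.9% in TNFR2-/- NS vs WT NS. With 3 libraries per group an exact permutation test cannot go below 0.1, and genes under about 100 reads, among them Pdgfrb, Fgf17 and Fgf18, are limited by counting.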

Other observations

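Fgf5, a secreted FGF known as a brake on hair growth, entered no comparison because its divisor of 9599 bases kept it under the filter. It had 16, 14 and 12 reads in WT NS, 22, 26 and 38 in WT St, 42, 18 and 10 in TNFR2-/- NS and 33, 37 and 36 in TNFR2-/- St. The WT groups did not overlap, and the TNFR2-/- groups overlapped through NS replicate 2.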
